A study of Arabidopsis thaliana with 4 samples.

Results

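The AHA genes encode the plasma membrane proton pumps (H+-ATPases) of Arabidopsis thaliana, and 9 of them were followed here early in shoot gravitropism. They were taken as the probes that name 1 of the loci of AHA1, AHA2, AHA3, AHA4, AHA5, AHA8, AHA9, AHA10 and AHA11. Each locus had 1 probe naming that locus alone, so the set holds 9 probes of 21500 gene probes, and all 9 were among the 18250 genes tested. The set was taken by locus and not by a cut on its values. Earlier results of these data were known when it was chosen.

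Inflorescence stems of ecotype Col, 4 to 8 cm long, were laid horizontally for 10 or 30 min in dim, non-directional light at 23 °C. The top 5 mm was cut off, and the 3 cm below it was split lengthwise by hand into a lower and an upper flank. RNA of both flanks of a time was hybridised together to a 2-colour Agilent array, with 2 arrays per time. All plants were gravistimulated, and no upright stem was analysed here, so the comparisons are between flanks and between times and not with a resting stem. Cy5 carried the lower flank on replicate 1 of each time and the upper flank on replicate 2. The labels describe both arrays of each time as biological replicates, but under the labelling protocol every RNA received both dyes. The spread behind the p-values may therefore be technical.

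A P-type proton pump of this family uses ATP to move protons out of the cell, which acidifies the wall, polarises the membrane and drives the uptake of potassium and other solutes. In the acid growth account of auxin action, auxin raises pump activity largely without new pump protein. SAUR proteins inhibit PP2C.D phosphatases, a threonine next to the carboxyl end of the pump stays phosphorylated, and a 14-3-3 protein binds there and holds the pump active. Horizontal stems bend upward because the lower flank, where auxin accumulates, elongates more. The question here is whether the pump transcripts themselves differed between the flanks or between the times.

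In the main fit, which has no term for dye, no pump gene passed the test between the flanks at either time. None passed in the change of the flank difference from 10 to 30 min, or between the times in either flank. With the background offset of 50 used here, every flank difference was under 0.16 on the log2 scale. The 95% intervals of that fit reached at most 20.3% less to 20.2% more transcript in the lower flank at 30 min. In the same RNA the auxin-induced genes IAA5 and SAUR19 were higher in the lower flank at 30 min by 2.28 ± 0.04 and 1.68 ± 0.04 (log2 ± SE, 2 arrays; adjusted p = 0.000478 and 0.000586, limma). Without the offset the 2 dimmest probes, AHA9 and AHA10, gave larger values that did not pass either, from -0.45 to 0.53. With the replicate number, which marks dye orientation, as a block, 4 of 9 pumps passed at 10 min and 5 at 30 min. For the change it was 4, and these counts stand against 23.4%, 34.6% and 38% of all genes. AHA3, the pump of phloem companion cells, had the lowest unadjusted p of the pumps in each flank comparison of the main fit. Its flank difference pointed one way at 10 min and the other at 30 min on every array. That of the dim AHA9 did the same with smaller values, and AHA11 had the largest difference at 10 min.

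The pump probes fell into a bright and a dim set. A probe's brightness depends on its own binding as well as on its transcript, so brightness is given here against each spot's local background and not to rank the transcripts. AHA1 and AHA2, which carry most pump activity in growing tissues and are lethal when lost together, had signals of 17.8 to 35.7 and 12 to 25.5 times local background over the 8 channels. AHA3 had 9.28 to 19.7 times local background. AHA11, which is expressed widely in the plant, had 6.16 to 12.2 times. All 4 were flagged well above background in 8 of 8 channels, none was saturated, and none was an outlier spot.

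The other probes were dimmer. AHA5 had 3 to 4.97 times and AHA8, a pollen pump, 1.96 to 3.18 times local background. Both, like the 4 bright ones, exceeded the brightest of the 162 negative control spots in all 8 channels. AHA4, known mainly from the root endodermis, had 1.45 to 2.31 times local background and exceeded the brightest negative control in 3 of 8 channels. AHA9, an anther and pollen pump, and AHA10, the vacuolar pump of the seed coat, reached at most 1.96 and 1.9 times. Each was well above background by the scanner's flag in 7 of 8 channels and exceeded the 95th percentile of the negative controls in 8, but the brightest negative control in 0. In the upper flank at 10 min both AHA9 and AHA10 passed the flag on 1 of the 2 arrays only. Their values below are those of spots near the floor of the array.

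**Figure D1:**
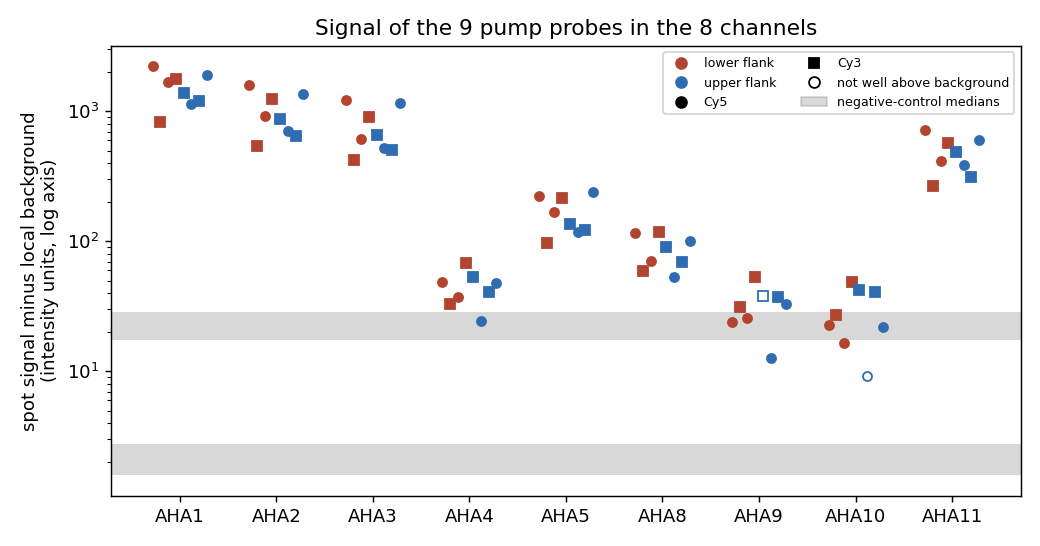
Spot signal minus local background (intensity units, log axis) of each pump probe in the 8 channels, red for the lower and blue for the upper flank, circles for Cy5 and squares for Cy3; open symbols were not well above background. The grey bands span the medians of the 162 negative control spots over the arrays, the upper band in Cy3 and the lower in Cy5, and AHA9 and AHA10 lie nearest to them.

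The marker genes of stem tissues were measured in the same channels. All 4 epidermis, 3 photosynthetic, 4 xylem and fibre, 4 phloem and 3 guard cell markers with a probe were well above background in 8 of 8 channels. Of the seed coat markers BAN and TT12 were above it in 0 of 8 channels, DFR in 2 and TT2 in 8. Of the pollen markers, AGP6 and AGP11 were above it in 8 and VGD1 in 6. The root markers PRP3 and COBL9 were above it in 8 and PHT1;2 in 4, at no more than 4.19 times local background. Between 87.1% and 90.7% of the gene probes' channels on an array were well above background.

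The probe positions are those of the array's own annotation, with a genome build not given in the sources used here. AHA1 (AT2G18960) was read on chromosome 2 at 8234000 to 8234059, plus strand. AHA2 (AT4G30190) was read on chromosome 4 at 14771145 to 14771204, minus strand. AHA3 (AT5G57350) was read on chromosome 5 at 23248480 to 23248608, minus strand. AHA11 (AT5G62670) was read on chromosome 5 at 25181561 to 25181620, plus strand. The AHA3 probe spans 129 bases of genome and the AHA5 probe (AT2G24520, chromosome 2, 10426497 to 10426755, plus strand) spans 259, against 60 for each of the others. AHA4 (AT3G47950) and AHA8 (AT3G42640) lie on chromosome 3, and AHA9 (AT1G80660) and AHA10 (AT1G17260) on chromosome 1. Pump genes are close paralogs, probe sequences were not used here, and binding of another member's transcript to a probe was not tested.

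Flank differences are log2 of the lower over the upper flank after normexp background correction and loess, so that a positive value means more transcript in the lower flank. Values of dim probes are pulled towards 0 by the offset of 50 intensity units added in that correction. Normalized log2 signals of a single channel, where given, come from the same values scaled between arrays. In whole-flank RNA, fewer cells of a type and less RNA per cell cannot be told apart.

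AHA1 had normalized log2 signals at 10 min of 10.32 and 10.49 in the lower flank and 10.50 and 10.42 in the upper, replicate 1 first. The flanks overlapped, with replicate 1 lower in the lower flank and replicate 2 higher. At 30 min AHA1 was at 10.86 and 10.54 in the lower flank and 10.90 and 10.38 in the upper. Here the replicates differed more than the flanks, and the flank difference was 0.06 ± 0.08 (SE, 2 arrays; adjusted p = 0.914, limma) with array values of -0.04 and 0.16. At 10 min it was -0.05 ± 0.08 (adjusted p = 1).

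AHA2 was at 9.90 and 9.87 in the lower flank at 10 min and at 9.89 and 9.77 in the upper. At 30 min AHA2 was at 9.95 and 10.05 in the lower flank and 9.94 and 9.90 in the upper. It was the one bright pump with a lower-flank value above the upper-flank value on all 4 arrays, but the margins on replicate 1 were 0.01 and 0.02. The means were 0.05 ± 0.05 at 10 min (adjusted p = 1) and 0.08 ± 0.05 at 30 min (adjusted p = 0.644, limma). In percent, the 30 min difference of AHA2 was 5.93% higher in the lower flank, with a 95% interval from 2.95% lower to 15.6% higher.

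AHA3 was at 9.54 and 9.54 in the lower flank at 10 min and at 9.47 and 9.39 in the upper. At 30 min AHA3 was at 9.42 and 9.62 in the lower flank and at 9.60 and 9.70 in the upper. At 10 min the lower flank was the higher one on both arrays, and at 30 min the upper flank was. The flank difference was 0.11 ± 0.04 at 10 min (array values 0.07 and 0.16; adjusted p = 0.818, limma). At 30 min it was -0.13 ± 0.04 (-0.18 and -0.08; unadjusted p = 0.0318 and adjusted p = 0.352, limma), or 8.57% less in the lower flank with a 95% interval from 15.4% to 1.16% less. The change between the times was -0.24 ± 0.06 (adjusted p = 0.246, limma).

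AHA11 pointed the other way. At 10 min it was at 8.84 and 8.94 in the lower flank and at 9.07 and 9.01 in the upper, so that the upper flank was higher on both arrays and the flanks did not overlap. The difference was -0.15 ± 0.06 (array values -0.23 and -0.08; adjusted p = 0.823, limma), the largest of the 9 in size at that time. At 30 min AHA11 was at 8.89 and 8.98 in the lower flank and 8.92 and 8.85 in the upper, and the difference of 0.06 ± 0.06 held both signs on its arrays. The change from 10 to 30 min was 0.21 ± 0.08 (adjusted p = 0.422, limma).

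Of the dim pumps, AHA5 was at 0.06 ± 0.06 and 0.04 ± 0.06, AHA8 at 0.04 ± 0.05 and 0.03 ± 0.05, and AHA4 at -0.01 ± 0.04 and 0.05 ± 0.04, at 10 and 30 min. AHA5 and AHA8 had arrays of both signs at both times. AHA4 had both signs at 10 min and was above 0 on both arrays at 30 min, by 0.07 and 0.03. AHA9 was above 0 on both arrays at 10 min (0.06 and 0.13, mean 0.09 ± 0.04) and just below 0 on both at 30 min (mean -0.03 ± 0.04). From the deposited processed signals, which carry no offset, the AHA9 difference at 10 min was 0.53 (adjusted p = 0.519), and with ratios only centred on the array median it was -0.04, so neither its size nor its sign held. AHA10 was at 0.02 ± 0.09 and -0.09 ± 0.09, with arrays of both signs at each time. The deposited processed signals gave AHA10 values of 0.27 and -0.45.

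**Figure D2:**
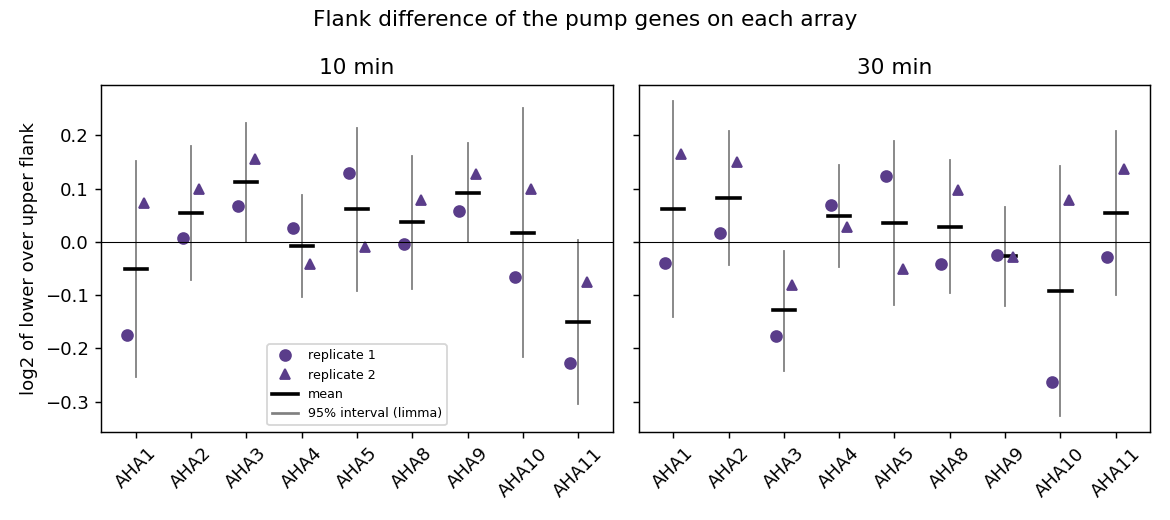
Log2 of the lower over the upper flank for the 9 pump genes at 10 and 30 min; symbols are the 2 arrays of a time, thick bars their mean and grey lines the 95% interval of the limma fit. At 10 min AHA11 lies below 0 and AHA3 above it on both arrays, at 30 min AHA3 lies below 0 on both, and the mean differences run from -0.15 to 0.11 and from -0.13 to 0.08.

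Counted over the family, 0 of 9 pump genes passed an adjusted p of 0.05 between the flanks at 10 min, where 0% of all genes did, although 1116 genes (6.12%) and 0 of the pumps had an unadjusted p under 0.05. At 30 min it was 0 of 9 against 0.528% of all genes, with AHA3 the 1 pump under an unadjusted p of 0.05 against 11.8% of all genes. For the change between the times it was 0 of 9 against 0.127%, again with AHA3 alone under the unadjusted threshold, against 12.8%. With shares of called genes this low, 9 genes are too few to set the family apart from the rest in either direction.

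Agreement of sign between the arrays of a time was near that of the genome. At 10 min 3 of 9 pumps (AHA2, AHA3 and AHA9) were above 0 on both arrays against 22.4% of all genes, and AHA11 alone was below 0 on both against 20.7%. At 30 min AHA2 and AHA4 were above 0 on both against 25.2%, and AHA3 and AHA9 below 0 on both against 24.2%. Both 30 min arrays lay above both 10 min arrays in AHA4 and AHA11, against 19.5% of all genes, and below them in AHA3 and AHA9, against 19.9%. The median flank difference of the 9 was 0.04 at both times, against 0.00273 and -0.000622 over all genes tested. The median size of the difference, signs ignored, was 0.0542 and 0.0547, against 0.0311 and 0.0377 over all genes.

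The fit above has no term for dye, and dye orientation is what the replicate number marks. Between arrays of the same time the flank ratios correlated across genes with r = -0.0586 at 10 min and 0.436 at 30 min, whereas the same-numbered arrays of the 2 times correlated with 0.268 and 0.277. With the replicate number as a block, the standard error of AHA3 became 0.02, and 4 of 9 pumps passed at 10 min (AHA3, AHA5, AHA9 and AHA11, adjusted p from 0.00156 to 0.0417, limma) against 23.4% of all genes. At 30 min 5 passed with the block (AHA1, AHA2, AHA3, AHA10 and AHA11, adjusted p from 0.00107 to 0.0394) against 34.6%. For the change between the times 4 passed (AHA1, AHA3, AHA9 and AHA11) against 38%. The block leaves each gene 1 residual degree of freedom and calls a large part of the genome, so these counts are read only beside those shares. AHA3 and AHA11 passed in all 3 of these comparisons with the block. The adjusted p for 10 min, 30 min and the change was 0.00426, 0.00107 and 0.00033 for AHA3 and 0.00156, 0.0394 and 0.000646 for AHA11.

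Each time held both dye orientations, so a probe's dye effect cancels in its mean flank difference and enters the spread between the arrays. The dye contrast, taken across all 4 arrays so that flank and time cancel, as log2 of Cy5 over Cy3, was -0.13 for AHA10, -0.11 for AHA1, -0.08 for AHA11 and 0.08 for AHA5, and between -0.06 and 0.03 for the others. Its SD across the genome was 0.0603, and that of the remaining contrast, free of flank, time and dye, was 0.0161.

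The 4 phloem markers had mean flank differences of the same sign as AHA3 at both times. They were SUC2, the companion cell sucrose carrier, SEOR1, a sieve element protein, PP2-A1, a phloem lectin, and APL, a regulator of phloem identity. At 10 min 4 of 4 were above 0 on both arrays, against 22.4% of all genes, with a median of 0.08. At 30 min the means of all 4 were below 0, with a median of -0.16, while 9005 of the 18183 genes tested were above 0. SUC2 was at -0.11 and -0.24, SEOR1 at -0.15 and -0.16, PP2-A1 at -0.38 and -0.35 and APL at -0.12 and 0.00. PP2-A1 passed the test at 30 min (-0.36 ± 0.04, adjusted p = 0.0451, limma), and it did not pass with an offset of 16, with median centring, from the processed signals or the series table, or without the filter on dim probes.

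Summed over the 4 phloem markers, the normalized signal at 10 min was 3380 to 3406 in the lower flank and 3094 to 3240 in the upper. At 30 min it was 2838 to 3270 in the lower flank and 3300 to 3677 in the upper. The flanks did not overlap in this sum at either time, with a narrow margin at 30 min (3270 against 3300). Their order turned as that of AHA3 did. How many genes separate in this way was not counted. The AHA3 values of the flanks themselves overlapped at 30 min. None of the 4 markers was at background. Their part in the AHA3 values was not tested. The 4 epidermis markers were also all below 0 at 30 min, with a median of -0.23 against -0.01 at 10 min, and the 4 xylem and fibre markers had a median of -0.10 against -0.03. The 3 photosynthetic markers had a median of -0.15 at both times, with all 3 below 0 at 30 min. The 3 guard cell markers also turned in their median, from 0.05 at 10 min to -0.10 at 30 min, with 1 of 3 above 0 then. The median change of the flank difference was -0.24 for phloem, -0.22 for epidermis and -0.15 for guard cell markers. The part of these other tissues in the pump values was not tested either. AKT2, a phloem potassium channel outside the marker list, had the opposite order to AHA3 at 30 min, with array values of 0.19 and 0.09, after 0.12 and 0.00 at 10 min.

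**Figure D3:**
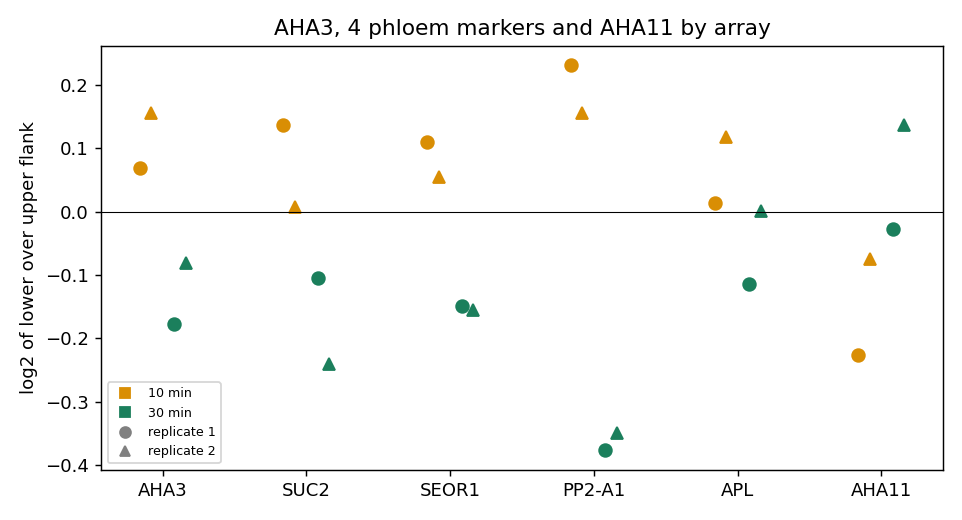
Log2 of the lower over the upper flank on each array for AHA3, the phloem markers SUC2, SEOR1, PP2-A1 and APL, and AHA11; colours mark the time and shapes the replicate. AHA3 and the markers lie above 0 at 10 min and, except replicate 2 of APL at 0.00, below 0 at 30 min, while AHA11 lies below 0 at 10 min.

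Between the times, 8 of 9 pumps had a higher mean level at 30 than at 10 min and AHA11 a lower one. Of all genes tested, 10616 of 18167 had a higher level at 30 min. Past the test were 0 of 9 pumps against 4.41% of all genes, and 0 of 9 against 9.84% with the replicate block. Before adjustment 0 of 9 were below 0.05, against 25.1%. AHA1 differed by 0.24 ± 0.14 (adjusted p = 0.347, limma), and this rested on 1 array. The average signal of AHA1 was 10.41 and 10.46 on the 10 min arrays, 10.88 on replicate 1 at 30 min and 10.46 on replicate 2. Without replicate 2 at 30 min the AHA1 difference was 0.45 and passed (adjusted p = 0.0227, limma), but 30.8% of all genes passed too. The 30 min group was then a single array, taken to vary as the 10 min arrays did. Without replicate 1 at 30 min the AHA1 difference was 0.03. AHA5 was at 0.19 ± 0.08 (adjusted p = 0.223) with both 30 min arrays above both 10 min arrays. The others lay between -0.06 for AHA11 and 0.14 for AHA9. From the deposited processed signals, AHA9 was at 0.59 (adjusted p = 0.212) and AHA10 at 0.45 (adjusted p = 0.271).

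Both 30 min arrays were above both 10 min arrays in 7 of 9 pumps, all but AHA10 and AHA11, against 36.1% of all genes, and below them in AHA11 alone, against 24.2%. Some margins were narrow on replicate 2 at 30 min, set against the higher 10 min array. They were 10.459 against 10.455 in AHA1, 6.934 against 6.926 in AHA8, 6.185 against 6.164 in AHA9 and 6.385 against 6.361 in AHA4. The median change of level was 0.10 for the pumps and 0.04 over all genes. The pumps share their 4 arrays, and replicate 1 at 30 min differed from replicate 2 more widely than the 10 min arrays differed from each other (SD of the level difference over brighter genes 0.219 against 0.117).

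Taken flank by flank, 0 of 9 pumps changed in the lower flank against 9.99% of all genes, and 0 of 9 in the upper against 3.87%. With the replicate block the counts were 0 of 9 against 12.5% and 0 of 9 against 8.52%. Before adjustment AHA1 alone was below 0.05 in the lower flank, against 27.6% of all genes, and 0 of 9 in the upper, against 20.6%. In the lower flank AHA1 was 0.30 ± 0.13 higher at 30 min (unadjusted p = 0.0422, adjusted p = 0.163, limma), AHA5 0.18 ± 0.10 and AHA2 0.12 ± 0.10. AHA3 stood at -0.02 ± 0.11. In the upper flank AHA3 was at 0.22 ± 0.10 (adjusted p = 0.249, limma), and the difference between its 2 flank values is the change of the flank difference given above, which did not pass. AHA9 stood at 0.20 ± 0.10, AHA5 at 0.20 ± 0.11, AHA1 at 0.18 ± 0.16 and AHA11 at -0.16 ± 0.09 there. From the deposited processed signals, AHA9 and AHA10 in the upper flank were at 0.89 and 0.81 (adjusted p = 0.13 and 0.302), and AHA9 in the lower flank at 0.30. Without replicate 2 at 30 min, AHA1 passed in the lower flank (0.46) and AHA1 and AHA10 passed in the upper (0.45 and 0.33), where 22.7% and 28.1% of all genes passed with the same single 30 min array. Without replicate 1 at 30 min, AHA1 in the upper flank was at -0.08 and AHA10 at -0.03.

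In the lower flank both 30 min values were above both 10 min values in 6 of 9 pumps, against 35.6% of all genes, and below them in 0, against 23.7%. In the upper flank they were above in 5 (AHA2, AHA3, AHA4, AHA5 and AHA9), against 32.1%, and below in AHA11 alone, against 22.1%. Here too some margins were narrow. In the lower flank they were 6.972 against 6.961 in AHA8 and 6.107 against 6.098 in AHA10, and in the upper 6.371 against 6.368 in AHA4.

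The order of the 4 conditions differed between the pumps. AHA1, AHA2, AHA4, AHA5 and AHA8 were highest in the lower flank at 30 min. Their array values there overlapped those of the upper flank at 30 min, except in AHA2. The 2 ranges of AHA2 were separated by less than 0.02. AHA3, AHA9 and AHA10 were highest in the upper flank at 30 min, and AHA11 in the upper flank at 10 min. For AHA3 the values of the top condition, 9.60 and 9.70, did not overlap those of the next, the lower flank at 10 min at 9.54 and 9.54. For AHA11 the top values, 9.07 and 9.01, did not overlap those of the lower flank at 30 min. The conditions were ordered by these same values, and the share of all genes separated in this way was not counted.

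**Figure D4:**
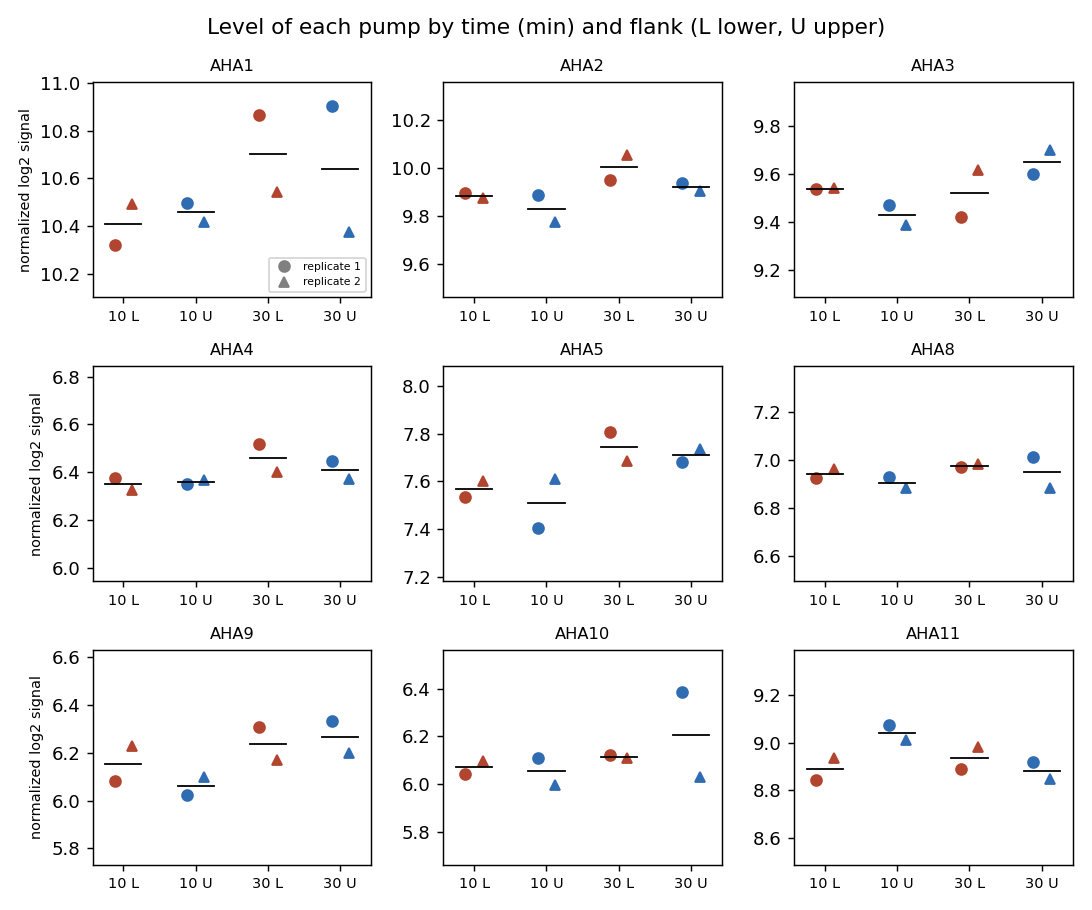
Normalized log2 signal of each pump by time (10 or 30 min) and flank (L lower, red; U upper, blue); symbols are the 2 replicates, black bars their mean, and every panel spans 0.9 log2 units. Replicate 1 of AHA1 at 30 min stands apart at 10.86 and 10.90 in both flanks, and AHA3 is highest in the upper flank at 30 min.

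The 3 genes whose pattern over the 8 channel values was most like that of AHA1, among 17754 genes with all values, were PMR6 (AT3G54920, a pectate lyase-like protein), AT5G37400 and DEX1 (AT3G09090), with Pearson r of 0.9986, 0.9967 and 0.9966. Without the 2 channels of replicate 1 at 30 min, r over the other 6 was 0.997, 0.974 and 0.969. The 3 most like AHA2 were AT3G02510, AT5G38830 and AT1G23750, with r of 0.9624, 0.9377 and 0.934. The 8 values share 4 arrays and their dyes, so these are descriptions of likeness in these arrays.

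Larger flank differences were measured among the genes that act on the pumps at the protein level. SAUR19 to SAUR24, the small auxin-induced proteins that inhibit PP2C.D phosphatases, were all higher in the lower flank at 30 min, by 1.56 to 1.68. Past the test were 6 of 6, against 0.528% of all genes. Close sequence similarity among these 6 genes means that their probes may share transcripts. At 10 min they lay between 0.40 and 0.48 and none passed over all genes. Before adjustment all 6 were below 0.05, against 6.12% of all genes. Blocked by replicate number, SAUR19 passed at 10 min too (0.41, adjusted p = 8.66e-05, limma), where 23.4% of all genes passed. From 10 to 30 min, 5 of 6 rose past the test in the lower flank (all but SAUR20), where 9.99% of all genes passed. All 6 fell past the test in the upper, by 0.62 to 0.93, where 3.87% of all genes passed.

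Of the 9 PP2C.D phosphatases, which remove the activating phosphate from the pump, 1 passed at 30 min, against 0.528% of all genes. PP2C.D1 (AT5G02760) was 2.24-fold higher in the lower flank (1.16 ± 0.05; adjusted p = 0.0025, limma), with array values of 1.1 and 1.22, against -0.10 and 0.01 at 10 min. Its level in the lower flank went from 7.80 and 7.87 at 10 min to 8.60 and 8.45 at 30 min, a rise of 0.69 ± 0.10 (adjusted p = 0.00386, limma). In the upper flank it went from 7.90 and 7.86 to 7.50 and 7.23 (-0.52 ± 0.11, adjusted p = 0.054). That value passed under 7 of 14 alternatives, among them the replicate block (adjusted p = 0.00448), an offset of 16 (0.0347) and separate channels (0.0273). The median over the 9 phosphatases was 0.01 at both times. With ratios only centred on the array median, none of PP2C.D1, SAUR19 and IAA5 passed at 30 min, at 1.17, 1.71 and 2.32 (adjusted p = 0.223, 0.223 and 0.0997).

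Of the kinases, receptors and binding proteins that act on the pump, 13 of 14 were tested and CIPK14 alone passed between the flanks. It passed at 30 min, where 0.528% of all genes did. With the replicate block CIPK11 passed too, at -0.06 at 10 min (adjusted p = 0.035, limma) and -0.12 at 30 min (adjusted p = 0.00133, limma). With that block 23.4% and 34.6% of all genes passed at these times. CIPK14 (AT5G01820) and its relative CIPK11 (AT2G30360) are protein kinases reported to inhibit the pump. At 10 min CIPK14 was on the lower-flank side by 0.12 on each array, and at 30 min it was lower there, by 0.30 and 0.37 (mean -0.34 ± 0.04; adjusted p = 0.0487, limma). That call was lost with an offset of 16, median centring, the processed signals, the series table, no filter on dim probes, and without replicate 2 at 30 min (adjusted p = 0.0557).

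Both kinases fell between the times. They were the 2 of 13 tested genes of this list called in level, in the lower flank and in the upper. Of all genes 4.41%, 9.99% and 3.87% passed in these comparisons. The average signal of CIPK14 went from 8.38 and 8.38 at 10 min to 7.58 and 7.65 at 30 min, a fall of 0.77 ± 0.08 (adjusted p = 0.0105, limma). CIPK14 fell by 1.00 ± 0.10 in the lower flank (adjusted p = 0.000306) and by 0.54 ± 0.10 in the upper (adjusted p = 0.026). CIPK11 fell by 0.49 ± 0.08 in level (10.75 and 10.83 at 10 min, 10.36 and 10.24 at 30 min; adjusted p = 0.0389, limma). The falls of CIPK11 in the lower flank, 0.52, and in the upper, 0.46, also passed (adjusted p = 0.0126 and 0.0479). The falls of CIPK14 in level and in the lower flank passed under every alternative run for them. The fall of CIPK14 in the upper flank did not pass from the processed signals, with the average signal centred, or without either 10 min array. CIPK11 did not pass from the processed signals or without either 10 min array in level, lower flank or upper flank, and its call in the upper flank was lost under most alternatives (adjusted p up to 0.325). Its level also missed without the filter on dim probes (adjusted p = 0.0544), and its lower flank with median centring (0.0884). There was no upright stem at either time, so these falls are between 2 times of gravistimulated stems.

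None of the 11 tested 14-3-3 genes passed in any comparison, where the share of all genes that passed ran from 0% to 9.99%. At 10 min GRF2 was at -0.17 ± 0.04 and GRF9 at -0.12 ± 0.03, the largest of the list, and at 30 min GRF8 was at -0.06 ± 0.04. Of the vacuolar proton pumps, which acidify the vacuole instead of the wall, 28 of 29 were tested. In any comparison 0 of them passed, again against 0% to 9.99% of all genes. AVP1, the vacuolar pyrophosphatase, and VHA-B1, a V-ATPase subunit, were both at -0.13 at 10 min. At 30 min 25 of the 28 were below 0, with a median of -0.04, while 9005 of the 18183 genes tested were above 0. Of the potassium channels and transporters, whose uptake the pump drives, 12 of 13 were tested. Between the flanks 0 passed, against 0% of all genes at 10 min and 0.528% at 30 min. AKT2 had the largest value at 30 min, 0.14 ± 0.05 (adjusted p = 0.363). AHA6 and AHA7, pump genes outside the 9, lay between -0.04 and 0.01 at both times.

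**Figure D5:**
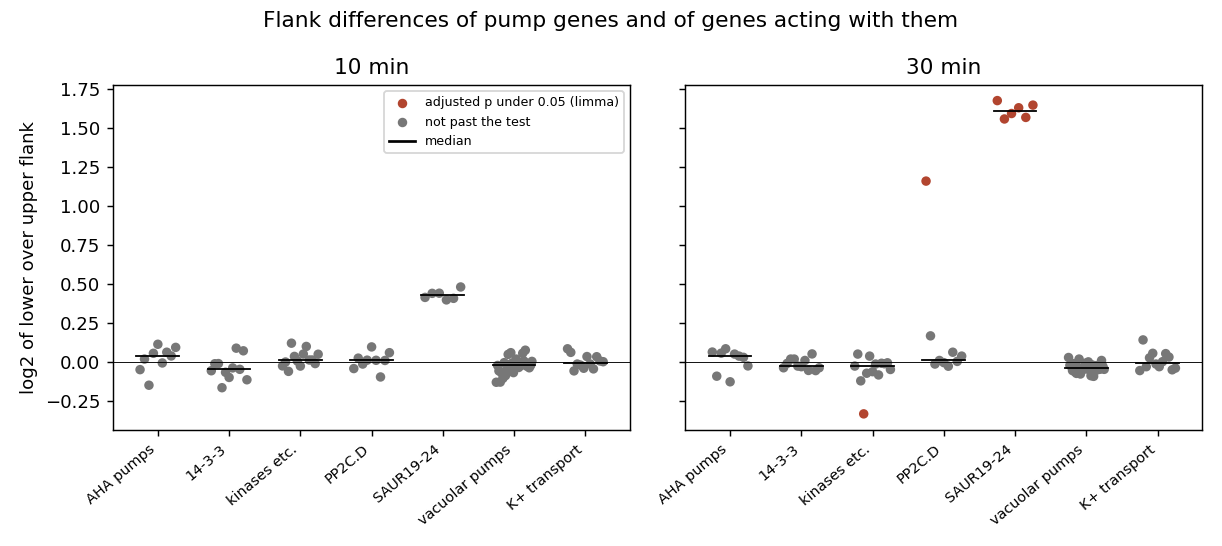
Log2 of the lower over the upper flank at 10 and 30 min for the pump genes and for lists of genes that act with them, 1 point per gene, red where the adjusted p was under 0.05 (limma), with the median of each list as a bar. At 30 min the 6 SAUR genes and PP2C.D1 stand above 1 and CIPK14 lies at -0.34, while every pump gene lies between -0.13 and 0.08.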

How the data were processed

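Spots were read by Agilent Feature Extraction 8.1.1.1, per the file headers. Mean spot signal and median local background, as deposited intensity values without subtraction, were the starting point. The processed intensity values, deposited after background subtraction and dye normalization, the deposited log10 ratio and the authors' series table of log10 ratios served as alternatives. Set against the scanner values, the table differed by at most 0.005 from the deposited log10 ratio on replicate 1 arrays and from the processed log10 ratio on swapped arrays, with direction lower over upper flank. Its column medians were 0, -0.00128, 0 and -0.00264. Other deposited values were flags of 0 or 1 for spots well above background, saturated or outlying.

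From the mean signals, normexp (offset 50) and loess gave log2 ratios, and Aquantile scaled the arrays (limma 3.58.1, R 4.3.3). Control spots (1075 of 22575) had no weight, and outlier spots (124, 120, 451 and 152) were left out. Genes were represented by their brightest one-locus probe (20269 probes) and tested where, in at least 1 flank and time, both arrays had it well above background. A mean per time was fitted with lmFit and eBayes, with Benjamini-Hochberg over all genes and calls at 0.05. Each array had its own slide and all were scanned on 1 day, so no slide block was fitted. The same-numbered arrays' deviations correlated with 0.867 for ratios and -0.293 for level over 2 pairs; the number marks the dye orientation, per the labels. The precision is limited by the 4 arrays. Of 20219 loci, 20137 were found in a RefSeq table (TAIR10.1, names only), with all 9 members. The fits were tested on simulated data.

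The members and lists were chosen with earlier results of these data known. Named were all 9 members, the called genes of each list (at most 4) or its 1 or 2 largest values, the 3 genes most like AHA1 and AHA2, and IAA5 and SAUR19, besides tissue markers. Alternatives are given in the closing section.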

Additional observations from a re-analysis of the deposited data

Results flagged for a closer look

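The screen for this section covered the pump genes, PP2C.D1, SAUR19, CIPK11, CIPK14, IAA5, SUC2, SEOR1, PP2-A1 and APL only. In 6 of these genes every array of one time lay opposite in sign to every array of the other. For these 6 the change of the flank difference from 10 to 30 min, tested in the limma fit, did not pass. The change was -0.24 for AHA3 (adjusted p = 0.246), -0.12 for AHA9 (0.449), -0.45 for CIPK14 (0.0849), -0.24 for SUC2 (0.311), -0.56 for PP2-A1 (0.074) and -0.23 for SEOR1 (0.191). All 6 were on the lower-flank side at 10 min and on the upper-flank side at 30 min. By the looser rule of both 30 min ratios below both 10 min ratios, 19.9% of all genes qualified. Outside the screen, other listed genes also reversed on every array, among them PSY1R, FER and TMK4, and GRF7 in the opposite direction. With the replicate number as a block all 6 passed, with adjusted p of 0.00033, 0.0117, 4.42e-05, 0.000317, 3.39e-05 and 0.00049 in the same order. Of all genes, 38% passed in this change with the block.

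In 3 genes of the same screen the flank difference itself differed between the times past the test, against 0.127% of all genes. The change was 1.20 for PP2C.D1 (adjusted p = 0.015), 1.26 for SAUR19 (0.0121) and 2.17 for IAA5 (0.00346). None of the 3 passed with ratios centred on the array median, and PP2C.D1 and SAUR19 narrowly missed from the processed signals (adjusted p = 0.0524 for each). SAUR20 to SAUR24, outside the screen, also passed in the main fit (adjusted p from 0.0127 to 0.0243, limma).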

How the results depend on the processing

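With the replicate number as a block, 4, 5 and 4 pump genes passed in the flank difference at 10 min, at 30 min and in its change, against 0 without it, and the block changed no call of a pump in the comparisons of level, lower flank and upper flank. Leaving out each array in turn gave 0 to 0 pumps in the 3 flank comparisons, 0 to 1 in level, 0 to 1 in the lower flank and 0 to 2 in the upper flank. No other alternative run called a pump, and no called value changed sign. Counts over all genes moved far more. With the block 4266, 6289 and 6907 genes passed in the 3 flank comparisons against 0, 96 and 23, and with ratios centred on the array median 0 and 0 passed at 30 min and in the change. At 30 min 47 passed with an offset of 16, 60 from the processed signals and 61 from the series table, and the processed signals and the table each left 2 for the change. Fitted alone, 86 genes passed at 10 min and 613 at 30 min. For level, lower and upper flank (801, 1815 and 703), the block gave 1787 and 1548 for level and upper flank, processed signals 779 and 396 for lower and upper, median centring 829 and average centring 797 for lower, no filter 504 for level, and separate channels 1070 for upper. Leaving out an array gave 44 to 104, 214 to 613, 234 to 429, 446 to 5495, 560 to 4053 and 315 to 5006 in the 6 comparisons. The cause was not tested. Quantile scaling of the average signal is what the main setting does and was not run again. The 4 arrays limit the precision, and AHA4, AHA9 and AHA10 lie near background.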
